A study of Mus musculus with 45 samples.

Results

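The mitochondrial respiratory chain genes are the nuclear genes that encode subunits and assembly factors of the 5 complexes of oxidative phosphorylation. They were taken by symbol: every gene of the array annotation whose symbol starts with Nduf, Uqcr, Sdha, Sdhb, Sdhc, Sdhd, Cox4, Cox5, Cox6, Cox7, Cox8 or Atp5. This gave 85 of 11807 genes on the arrays of passages 4, 6 and 16, and 87 of 12394 genes on the arrays of passage 10, with 81 genes on both and 91 on either. By complex, the table of passages 4, 6 and 16 held 32 subunits of complex I, 4 of complex II, 7 of complex III, 16 of complex IV and 17 of complex V, with 8 assembly factors and 1 pseudogene entry, Ndufs5-ps. The passage 10 table held 33, 4, 8, 16 and 17 subunits of complexes I, II, III, IV and V, with 9 assembly factors. Ndufa4 was counted with complex IV, and Cox7a2l, which joins complexes III and IV into supercomplexes, was counted as a complex IV assembly factor. Ndufa4l2 was not analysed here.

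The series holds 45 one-colour arrays of mouse induced pluripotent stem cells (iPSCs), in 15 groups of 3 clones. From mouse 2, iPSCs were made from tail tip fibroblasts (TTF), splenic B cells, T cells and bone marrow granulocytes, and each of the 4 origins was measured at passages 4, 10 and 16. From mouse 1, the groups were iPSCs of skeletal muscle precursors (SMP) at passage 6 and of granulocytes at passages 16 and 4. Strain, sex and age are not given in the labels used here. All lines came from a secondary reprogramming system, in which the factors are already carried by the starting cells, and all were grown in ESC medium over irradiated embryonic fibroblast feeders, most of which a short preplating step was meant to remove before RNA extraction. Arrays of the source cells were not analysed here. Each origin of a mouse is represented by clones of that one mouse, so the spread behind each p-value is between clones and not between animals. The origins of mouse 1 were also taken at different passages, so that for SMP against granulocytes origin and passage cannot be told apart.

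In the respiratory chain, complex I (NADH dehydrogenase) and complex II (succinate dehydrogenase) pass electrons to ubiquinone, complex III passes them to cytochrome c, and complex IV (cytochrome c oxidase) passes them to oxygen, while complex V (ATP synthase) uses the resulting proton gradient to make ATP. Assembly factors of the Ndufaf and Sdhaf families help to build the complexes without remaining in them. Several complex IV subunits exist as a widely expressed isoform and a tissue-restricted one. Pluripotent cells are known to rely strongly on glycolysis, and reprogramming is known to remodel mitochondria.

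The promoters of 5 genes on which the results below turn are shown first, because nuclear respiratory factor 1 (NRF1), ETS-family factors and YY1 are known to act at promoters of this gene class. Each line runs from 250 bases before to 50 bases after the annotated start, from RefSeq (GRCm38.p6), 5′ to 3′ on the gene's strand, with capitals at matches to GCGCATGCG (NRF1), CCGGAAGT (ETS) or AAGATGGCG (YY1) on either strand.
Ndufaf4, chr4:24897833-24898132, plus strand: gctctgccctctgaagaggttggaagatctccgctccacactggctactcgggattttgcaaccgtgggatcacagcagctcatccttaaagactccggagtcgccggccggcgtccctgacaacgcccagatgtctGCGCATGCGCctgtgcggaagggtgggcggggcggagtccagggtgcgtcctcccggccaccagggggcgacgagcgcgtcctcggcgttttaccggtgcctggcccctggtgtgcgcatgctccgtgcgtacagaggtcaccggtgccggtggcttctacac
Uqcr11, chr10:80406772-80407071, minus strand: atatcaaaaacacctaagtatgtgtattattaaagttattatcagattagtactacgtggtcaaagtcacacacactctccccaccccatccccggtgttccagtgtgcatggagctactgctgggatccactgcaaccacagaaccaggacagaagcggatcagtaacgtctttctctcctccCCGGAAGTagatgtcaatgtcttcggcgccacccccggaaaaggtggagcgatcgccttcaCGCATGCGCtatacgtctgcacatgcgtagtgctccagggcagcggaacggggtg
Cox8a, chr19:7217567-7217866, minus strand: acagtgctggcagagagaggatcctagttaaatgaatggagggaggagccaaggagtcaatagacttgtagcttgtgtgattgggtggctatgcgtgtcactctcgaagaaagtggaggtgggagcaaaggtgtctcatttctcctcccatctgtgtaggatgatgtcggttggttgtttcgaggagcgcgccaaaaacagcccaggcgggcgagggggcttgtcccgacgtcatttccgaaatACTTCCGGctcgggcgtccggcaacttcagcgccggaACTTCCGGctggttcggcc
Cox7a1, chr7:30183921-30184220, plus strand: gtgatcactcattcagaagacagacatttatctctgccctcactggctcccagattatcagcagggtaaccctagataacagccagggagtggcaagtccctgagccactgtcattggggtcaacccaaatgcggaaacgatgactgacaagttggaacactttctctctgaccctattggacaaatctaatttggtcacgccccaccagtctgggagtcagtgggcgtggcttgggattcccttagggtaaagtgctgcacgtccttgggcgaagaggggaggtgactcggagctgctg
Cox6b2, chr7:4753045-4753344, minus strand: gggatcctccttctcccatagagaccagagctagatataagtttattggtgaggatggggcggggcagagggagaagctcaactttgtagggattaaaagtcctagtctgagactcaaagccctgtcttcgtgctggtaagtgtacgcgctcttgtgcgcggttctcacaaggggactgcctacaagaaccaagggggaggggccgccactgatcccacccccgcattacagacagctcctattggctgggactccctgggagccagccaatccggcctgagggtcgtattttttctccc
The window of Ndufaf4, a complex I assembly factor, held an NRF1 match, and that of Uqcr11, a small complex III subunit, held an NRF1 and an ETS match. The window of Cox8a, a widely expressed complex IV subunit, held ETS matches, and those of the tissue-restricted isoforms Cox7a1 and Cox6b2 held none of the 3 motifs. RefSeq windows were found for 76 of the 91 genes, 81 windows in all. NRF1 letters were in 12.3% of these and in 1.75% of all 32851 windows of the same length, YY1 letters in 8.64% against 1.40%, and ETS letters in 6.17% against 3.89%.

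Values below are deposited log2 RMA values, so that 1 log2 unit is a factor of 2. The tables were normalized separately, so each passage 10 array was compared only with other passage 10 arrays. Arrays correlated with the other clones of their group at 0.997 or above at passage 10 and at 0.922 to 0.996 in the other table, where the lowest value belonged to clone 3 of the passage 16 granulocyte lines of mouse 2. Results that rest on that array are given with and without it. The mean of 11 measured pluripotency genes lay between 10.71 and 11.24 in the 11 groups of passages 4, 6 and 16, and that of 12 genes between 12.16 and 12.27 at passage 10. Feeder fibroblast markers were not even across groups: their mean over 17 genes was 8.10 in SMP passage 6 and in T cell passage 4 lines, against 7.15 to 7.52 in the other passage 4 groups. At passage 10 the mean over 19 feeder markers was 8.40 in granulocyte lines, against 8.82 in B cell, 8.91 in T cell and 9.47 in TTF lines. What these shares of feeder RNA contribute to a difference between groups was not tested, and in a bulk sample a change in the cells present and a change in RNA per cell cannot be told apart.

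Respiratory chain genes varied less between groups than the average gene, and about as much as all genes at or above their median signal. The range of the 11 group means at passages 4, 6 and 16 had a median of 0.56 over the 85 genes, against 0.84 over all genes and 0.59 over genes at or above their median signal. At passage 10 the median range over 4 groups was 0.18, against 0.24 over all genes and 0.16 over genes at or above their median signal. That set is not matched to the members in signal. Ranges stayed under 1 log2 unit for 74 of 85 genes and 86 of 87 genes. The ATP synthase subunit genes Atp5j2 and Atp5c1 were among the narrowest, with ranges of 0.13 and 0.22. The widest ranges were those of Cox4i2 with 1.99, the c-subunit gene Atp5g2 with 1.502, the complex I assembly factor Ndufaf1 with 1.49, and Cox6b2 with 1.40. For Atp5g2 and Ndufaf1 the lowest group was granulocyte passage 16 of mouse 2, where clone 3 had 8.27 against 9.97 and 10.44 in the other clones for Atp5g2. The mean over the subunits of a complex ran over the arrays of passages 4, 6 and 16 from 10.76 to 11.17 for complex I, 10.09 to 10.62 for complex II, 10.44 to 10.83 for complex III, 9.71 to 10.16 for complex IV and 11.12 to 11.84 for complex V. The lowest array of complexes II, III and V was clone 3 of the granulocyte passage 16 lines of mouse 2, without which complex V started at 11.28.

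**Figure D1:**
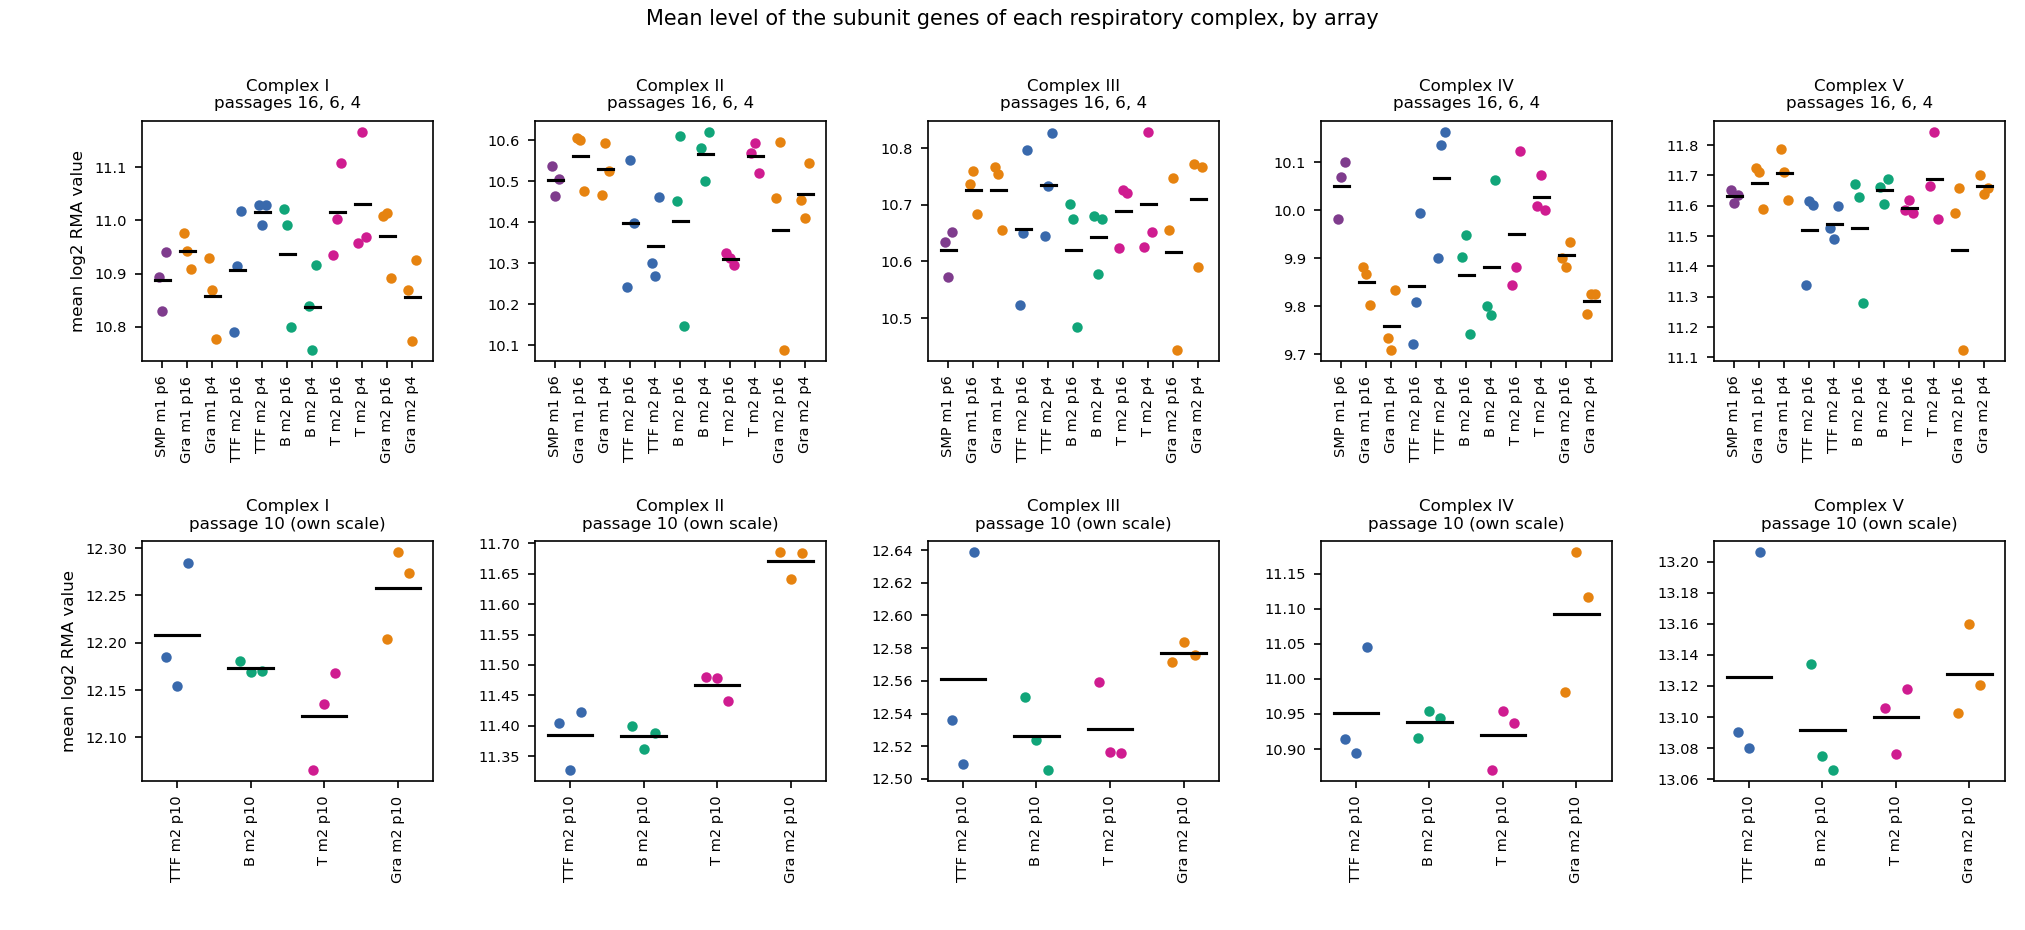
Mean log2 RMA value over the measured subunits of each complex, 1 point per array (vertical axis, log2), by group (horizontal axis), with passages 16, 6 and 4 in one set of panels and passage 10 in the other, which was normalized separately. At passage 10 the 3 granulocyte arrays lie above all others for complex II (11.64 to 11.69), and in the other table the lowest point of complex V (11.12) is clone 3 of the granulocyte passage 16 lines of mouse 2.

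Calls were made with limma at a Benjamini-Hochberg adjusted p under 0.05 over all genes of a table. At passage 4, 28 of the 85 genes differed among the 4 origins of mouse 2, against 39.0% of all genes. TTF lines had 18 genes higher and 5 lower than the other 3 origins, against 11.7% of all genes higher and 7.85% lower (19.5% called). B cell lines had none higher and 11 lower, against 3.80% and 6.34% of all genes (10.1% called). T cell lines had 12 higher and 3 lower, against 12.3% and 6.42%, and granulocyte lines 1 higher and 10 lower, against 8.33% and 14.8%. At passage 10, 21 of 87 genes showed a difference between origins, against 32.2% of all genes. Granulocyte lines had 22 higher and 5 lower there, against 21.1% and 17.2%, and TTF lines 3 higher and 2 lower, against 5.30% and 8.46%. At passage 16 limma called none of the 85 genes among the 4 origins (1.52% of all genes), 6 had an unadjusted p under 0.05, and Cox6b2 had the lowest adjusted p, 0.11. Without clone 2 of the passage 16 granulocyte lines of mouse 2, 7 genes were called there. Each one-origin comparison uses the same arrays as the others of its passage, and so they are not independent.

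Between passages, the mean over the 4 origins of mouse 2 had 11 genes higher and 17 lower at passage 16 than at passage 4, against 16.6% and 12.4% of all genes. Within one origin, TTF lines had 2 higher and 8 lower, against 5.76% and 6.43%, and B cell lines 8 higher and 2 lower, against 5.51% and 2.49%. T cell lines had 3 higher and 8 lower, against 7.49% and 10.4% (17.9% called), and granulocyte lines 15 higher and 10 lower, against 22.0% and 14.0% (36.0% called). For 24 genes the passage difference itself differed among origins in a moderated F-test of the interaction (32.8% of all genes). In granulocyte lines of mouse 1 limma called none (1.14%), with 10 genes at an unadjusted p under 0.05, and 1 gene called without clone 3 of the passage 16 T cell or granulocyte lines of mouse 2. SMP passage 6 lines against granulocyte passage 4 lines of mouse 1 gave 9 higher and 4 lower, against 11.6% and 10.1% of all genes (21.7% called). The share of respiratory chain genes called was above that of all genes in 4 of the 17 comparisons, those of TTF and of B cell lines at passage 4 and those of passage over the 4 origins and in B cell lines, and below it in the other 13.

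Single arrays carried much of several counts. Leaving out an array outside the groups compared leaves a difference as it is and can only move its p-value. Omissions counted below out of 33 include all arrays, also those outside the groups compared. At passage 4, TTF lines had 5 called genes without their clone 2 and 15 without clone 1 or B cell clone 2, in place of 23. B cell lines had 2 without their clone 2 and 3 without clone 1, in place of 11. T cell lines had 9 without clone 2, in place of 15, and granulocyte lines 5 without clone 1 or clone 2, in place of 11. At passage 10, leaving out granulocyte clone 3 gave 11 in place of 21 among origins and 16 in place of 27 for granulocyte lines, and the 5 genes of TTF lines became 1 or 2 without any of 6 arrays and 9 without T cell clone 3. Leaving out B cell clone 3 at passage 16 gave 1 gene among origins and 18 in place of 28 between passages over the 4 origins.

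Within origins, the passage counts were 6 without passage 16 clone 3 in granulocyte lines, and 8 and 10 without passage 4 clones 2 and 1, in place of 25. In TTF lines they were 2 and 4 without passage 16 clones 2 and 1, and 4 and 6 without passage 4 clones 3 and 2, in place of 10. In B cell lines they were 4 without passage 16 clone 3, and 3 and 6 without passage 4 clones 2 and 1, in place of 10. In T cell lines they were 4 and 7 without passage 16 clones 1 and 3, and 6 and 7 without passage 4 clones 2 and 1, in place of 11. SMP lines had 8 without their clone 3, in place of 13. Without granulocyte passage 16 clone 3 of mouse 2, 21 genes were called between SMP and granulocyte lines of mouse 1 and 18 between passages in T cell lines, since all arrays share the estimate of spread.

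**Figure D2:**
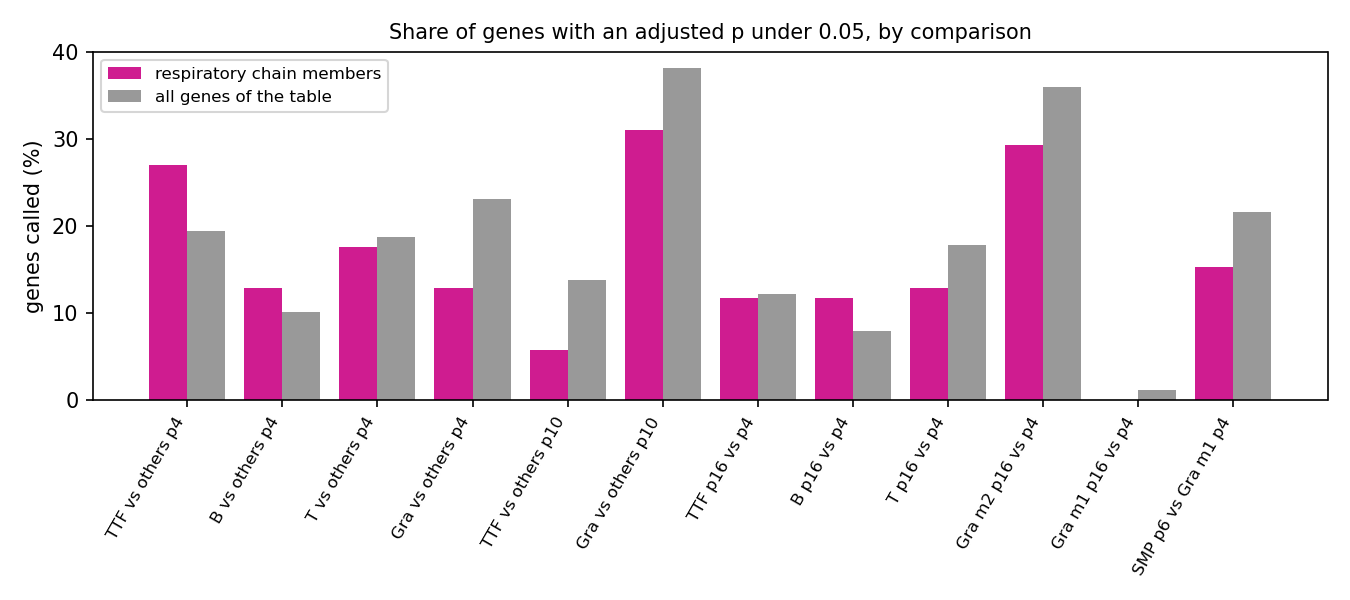
Percent of genes called by limma at an adjusted p under 0.05 (vertical axis) in 12 comparisons (horizontal axis), for respiratory chain genes and for all genes. The respiratory chain bar is the shorter one in most comparisons, and 0 against 1.14% between passages 16 and 4 in granulocyte lines of mouse 1.

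**Figure D3:**
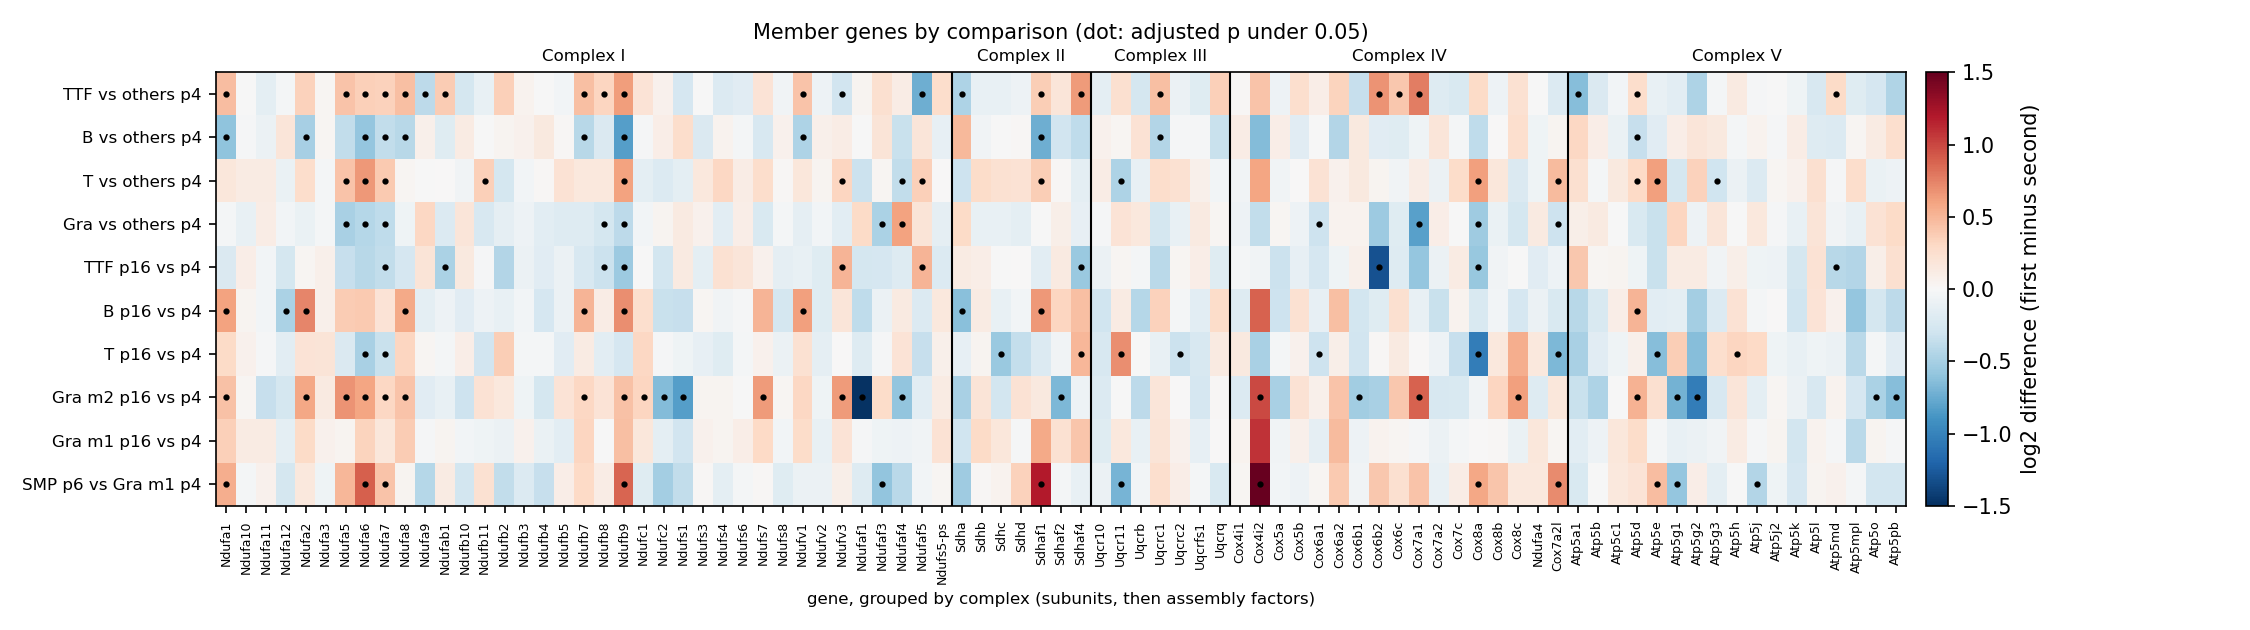
Log2 differences of 85 respiratory chain genes (1 cell per gene, ordered by complex) in 10 comparisons of iPSC groups, with a dot where limma's adjusted p is under 0.05. Called genes are scattered over the complexes, and the same complex I genes, such as Ndufa6 and Ndufb9, carry dots in several comparisons with opposite colours.

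Over all 17 comparisons, 26 of the 91 genes were called in none and 24 in 5 or more. Only the 81 genes on both sets of arrays were tested in all 17, and the others in fewer. Of the genes called in none, Ndufb1, Ndufb6, Ndufs5 and Uqcrh were tested at passage 10 only. Ndufa11, Ndufb4, Ndufs6 and Ndufs5-ps were not tested at passage 10. The same counts over all genes are not given here, so those in this paragraph describe the members only. In 13 of the 17 comparisons the share of members called was below that of all genes. The genes called most often were of complex I, which also has the most subunits measured: Ndufa7 was called in 12, Ndufa6 in 11 and Ndufb9 in 10. Subunits never called made up 12 of 36 for complex I, 0 of 4 for complex II, 3 of 8 for complex III, 6 of 16 for complex IV and 4 of 17 for complex V. Among them were core subunits and common isoforms: Ndufs3 and Ndufs8 of complex I, the Rieske protein Uqcrfs1 of complex III, Cox4i1 and Cox5b of complex IV, and the F1 gamma subunit Atp5c1.

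In complex I, 13 of 32 measured subunits (40.6%) differed among the origins at passage 4, against 39.0% of all genes, most of them accessory subunits. Of the 32, 10 were higher and 2 lower in TTF lines, none higher and 8 lower in B cell lines, 6 higher and none lower in T cell lines, and none higher and 5 lower in granulocyte lines, each against the other 3 origins. Of all genes, 11.7% were higher and 7.85% lower in TTF lines, 3.80% and 6.34% in B cell lines, 12.3% and 6.42% in T cell lines, and 8.33% and 14.8% in granulocyte lines. Ndufa6, an accessory subunit of the LYR protein family, had 10.64, 10.86 and 10.73 in T cell lines, against 10.59, 10.46 and 10.54 in TTF, 9.68, 9.64 and 10.16 in B cell and 9.94, 9.76 and 10.11 in granulocyte lines. T cell lines thus lay just above TTF lines and well above the other origins, without overlap. The difference of T cell lines from the other 3 was 0.65 ± 0.13 (SE, n = 3 against 9, limma adjusted p = 0.0007, at most 0.012 with any 1 array left out). Ndufb9, an accessory subunit of the membrane arm, had 11.63, 11.83 and 11.69 in TTF and 11.45, 11.99 and 11.66 in T cell lines, against 10.50, 10.46 and 10.92 in B cell and 10.77, 10.79 and 11.29 in granulocyte lines. Its values fell into a high pair and a low pair of origins, with no overlap between the pairs and a range of group means of 1.09 (limma F-test adjusted p = 6.5e-06).

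Several complex I genes set 1 origin apart. In TTF lines Ndufb7, a membrane arm subunit, was higher by 0.45 ± 0.10 (limma adjusted p = 0.0019). The acyl carrier protein Ndufab1 was higher there by 0.38 ± 0.12 (adjusted p = 0.023, but 0.14 without TTF clone 2), and Ndufa9, a subunit near the quinone site, differed by -0.39 ± 0.13 (adjusted p = 0.032, lost in 6 of 33 omissions with values up to 0.1, and 0.068 after quantile normalization). In B cell lines Ndufa1, needed for assembly of the membrane arm, was at 9.70, 9.62 and 9.68, below all 9 other arrays, which ran from 9.98 to 10.75; the difference was -0.61 ± 0.14 (limma adjusted p = 0.0057, and 0.051 without B cell clone 2). The accessory subunit Ndufa2 (-0.50 ± 0.13, adjusted p = 0.017), the NADH-binding core subunit Ndufv1 (-0.46 ± 0.14, adjusted p = 0.034) and Ndufa8 (-0.42 ± 0.12, adjusted p = 0.026) also lay below all other arrays in B cell lines. Their calls ended in 2, 4 and 3 of 33 omissions, each at its highest without B cell clone 2, with adjusted p of 0.12, 0.2 and 0.16, and that of Ndufv1 also when its probe sets were averaged (adjusted p = 0.14). Ndufb11, a membrane arm subunit, was higher in T cell lines by 0.35 ± 0.09 (limma adjusted p = 0.0071), with 12.34 to 12.43 in T cell lines and 11.91 to 12.25 in the others.

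Feeder markers also differed among the origins at passage 4. Of the 17 measured, 9 were higher in T cell lines, against 12.3% of all genes. In TTF lines, in which Ndufb9 and Ndufb7 were higher too, 1 was higher and 4 lower, against 11.7% and 7.85%. In B cell lines, in which these subunits were lower, 5 feeder markers were lower, against 6.34% of all genes. Of 10 measured endoderm markers 6 were higher there, against 3.80%. The feeder mean was 7.52 in granulocyte lines, against 7.15 in B cell, 7.39 in TTF and 8.10 in T cell lines. The part of these markers in the differences was not tested.

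At passage 10, measured on another platform, the order of the origins for Ndufa6 was another one. Granulocyte lines had 12.15, 12.23 and 12.22, against 11.50, 11.41 and 11.89 in TTF, 11.58, 11.73 and 11.53 in B cell and 11.55, 11.81 and 11.59 in T cell lines. Granulocyte lines were above every other array, by 0.58 ± 0.09 (n = 3 against 9, limma adjusted p = 0.00046), whereas at passage 4 their mean, 9.94, was above that of B cell lines only. In all, 9 of 33 complex I subunits were higher and 1 lower in granulocyte lines at passage 10, against 21.1% and 17.2% of all genes. In the same comparison 14 of 19 feeder markers were lower and none higher in granulocyte lines.

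For Ndufb9 and Ndufa6 the means of the 4 origins lay closer together at passage 16 than at passage 4. Both genes were named for differences among origins at passage 4, and the passage differences use the same arrays. The closer means are therefore no separate test. Ndufb9 had 11.20, 11.001 and 11.32 in TTF lines at passage 16, against 11.63, 11.83 and 11.69 at passage 4. The difference was -0.54 ± 0.16 (limma adjusted p = 0.029, lost in 4 of 33 omissions, all of TTF arrays compared, with values up to 0.14). In B cell lines Ndufb9 had 11.39, 11.38 and 11.18 at passage 16, against 10.50, 10.46 and 10.92 at passage 4, a difference of 0.69 ± 0.16 (adjusted p = 0.0084, and 0.061 without B cell passage 4 clone 2). It thus fell in TTF and rose in B cell lines. In granulocyte lines the difference was 0.44 ± 0.16 (adjusted p = 0.037, lost in 3 of 33 omissions with values up to 0.15), and in T cell lines -0.25 ± 0.16 (adjusted p = 0.31). The interaction of passage and origin had an adjusted p of 0.00046 in the F-test, and at most 0.0015 with any 1 array left out. Ndufa6 did likewise: its passage difference was 0.60 ± 0.16 in granulocyte lines (adjusted p = 0.0058) and -0.48 ± 0.16 in T cell lines (adjusted p = 0.035, lost in 3 of 33 omissions with values up to 0.18, and 0.054 after cyclic loess), with an interaction adjusted p of 0.00058.

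In B cell lines 6 complex I subunits rose and 1 fell between passages 4 and 16, against 5.51% and 2.49% of all genes. Ndufa2 had 10.60, 10.74 and 10.93 at passage 16, against 10.05, 9.93 and 10.09 at passage 4, a difference of 0.73 ± 0.16 (limma adjusted p = 0.0067, and 0.051 without passage 16 clone 3). Ndufv1 was higher by 0.62 ± 0.17 and Ndufa1 by 0.61 ± 0.17 (adjusted p = 0.024 and 0.025). Each call was lost in 5 of 33 omissions, at up to 0.11 and 0.092, all among the B cell arrays compared, 3 per passage. That of Ndufv1 was also lost when its probe sets were averaged (adjusted p = 0.11). Ndufa12, an accessory subunit, fell by 0.47 (adjusted p = 0.02), but by 0.22 when its probe sets were averaged (adjusted p = 0.27), and its call was lost without clone 3 of either passage (adjusted p = 0.13 for passage 16 and 0.12 for passage 4). Feeder markers averaged 7.998 in B cell lines at passage 16, against 7.15 at passage 4, and their part in these differences was not tested.

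Ndufv3, an accessory subunit that docks on the NADH-binding module, rose with passage in 2 origins. It had 12.34, 12.34 and 12.32 in TTF lines at passage 16, against 11.89, 11.72 and 11.85 at passage 4, and 12.50, 12.46 and 12.71 in granulocyte lines at passage 16, against 11.99, 11.80 and 11.97 at passage 4. The passages did not overlap in either origin. The differences were 0.51 ± 0.10 in TTF (limma adjusted p = 0.00089) and 0.63 ± 0.10 in granulocyte lines (adjusted p = 5.5e-05), and both calls held with any 1 array left out. In T cell lines Ndufv3 was 0.33 ± 0.08 above the other origins at passage 4 (adjusted p = 0.0047), and its passage difference there was 0.00. Over the 4 origins it had the lowest adjusted p of the 85 genes between passages, 0.33 ± 0.05 (adjusted p = 2.6e-05), although arrays of the pooled passages overlapped.

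**Figure D4:**
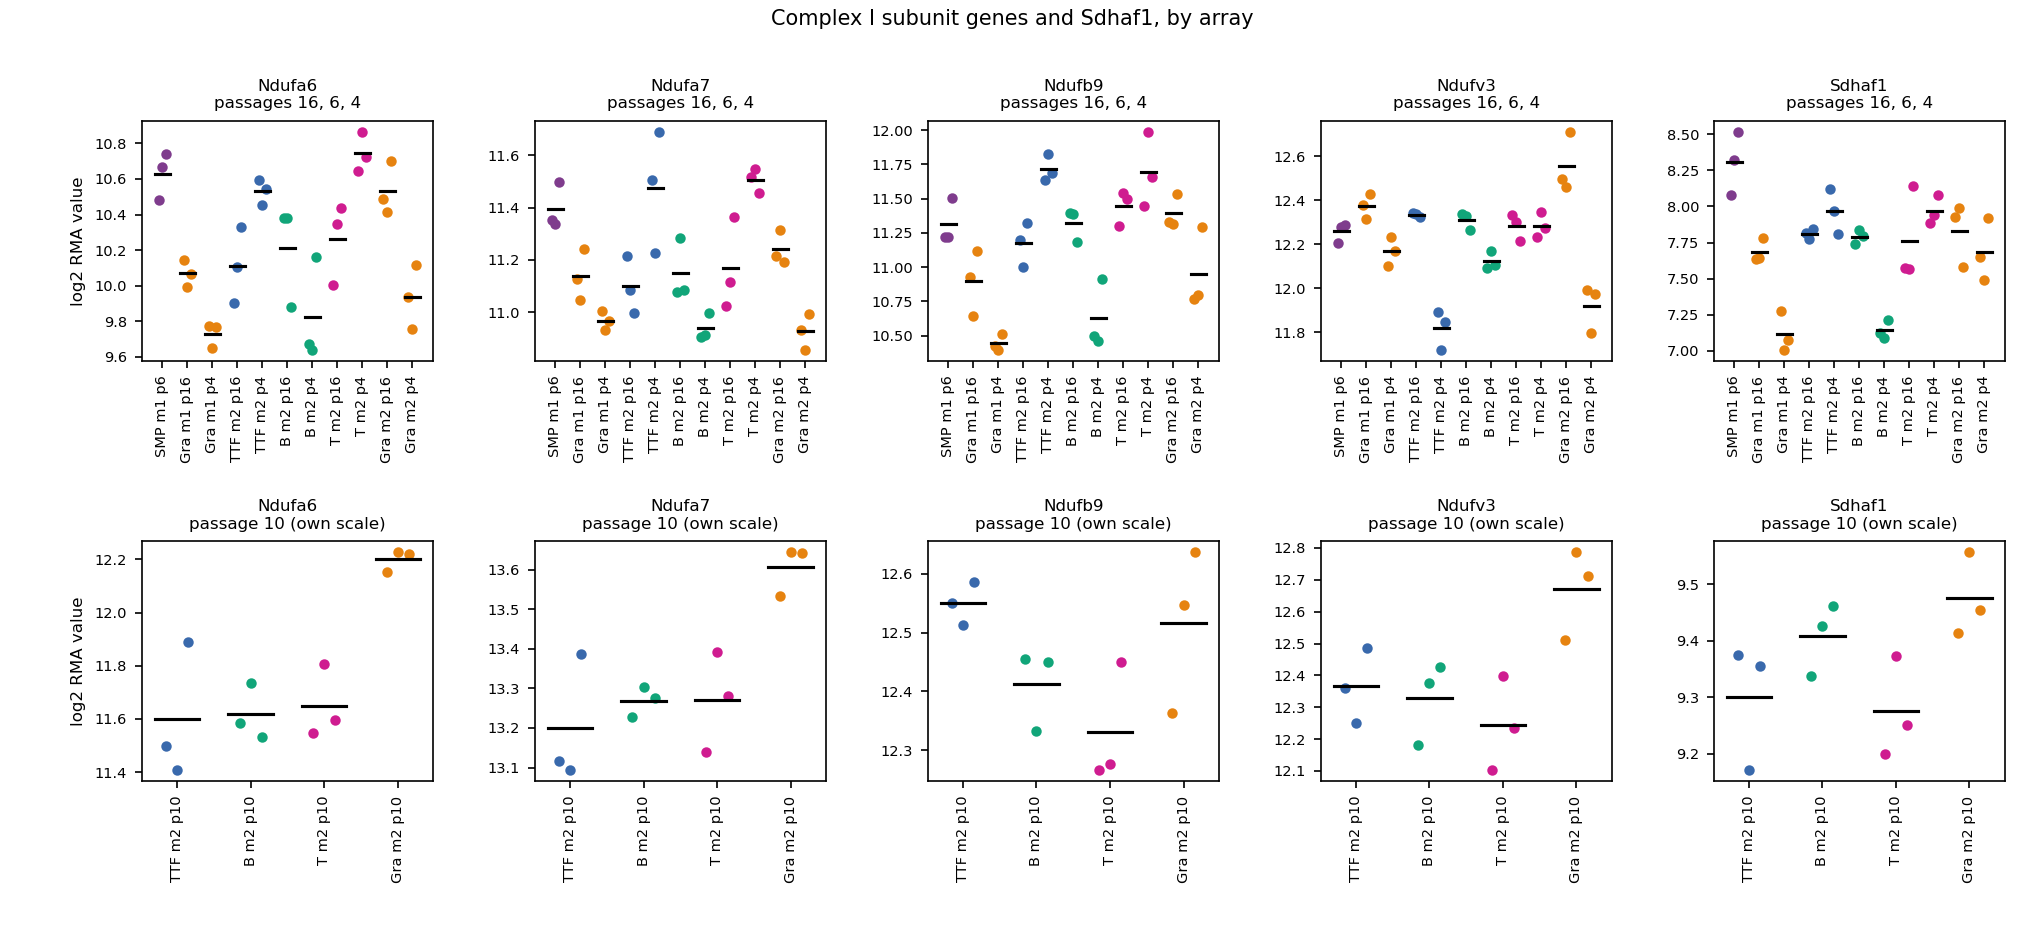
Log2 RMA values of the complex I subunits Ndufa6, Ndufa7, Ndufb9 and Ndufv3 and the complex II assembly factor Sdhaf1, 1 point per clone, by group of passages 16, 6 and 4 (horizontal axis). For Ndufb9 the passage 4 values of B cell lines (10.46 to 10.92) lie below the passage 16 values (11.18 to 11.39), while TTF lines show the opposite order.

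In granulocyte lines of mouse 2, 11 complex I subunits were higher and 2 lower at passage 16 than at passage 4. The same comparison had 22.0% of all genes higher and 14.0% lower. Median differences were 0.01 over the 85 genes and 0.21 over all genes, against 0.14 and 0.08 after cyclic loess and 0.13 and 0.12 after quantile normalization, so the order of the 2 medians depended on the scaling. Cell type markers moved in the same comparison: the pluripotency mean was 10.71 at passage 16 (lowest array 10.27), against 11.24 at passage 4, the endoderm mean was 6.31 against 5.16, and the feeder mean 7.93 against 7.52. Of 11 pluripotency genes 6 were lower and none higher, and of 10 endoderm genes 5 were higher and none lower; their part in the results was not tested. The accessory subunit Ndufa5 was higher by 0.67 ± 0.19 (limma adjusted p = 0.0086, its other probe set showing 0.065, and 0.37 with adjusted p = 0.044 for their mean) and the core iron-sulfur subunit Ndufs7 by 0.64 ± 0.17 (adjusted p = 0.0053). Without passage 16 clone 3 these became 0.45 (adjusted p = 0.091) and 0.43 (adjusted p = 0.058). The fallen subunits rested on the same clone: the core subunit Ndufs1 had 10.24, 10.40 and 8.41 at passage 16, against 10.58, 10.44 and 10.52 at passage 4, so that only clone 3 was far below. Its difference was -0.83 ± 0.28 (adjusted p = 0.025), and -0.19 without clone 3 (adjusted p = 0.42). For the membrane arm subunit Ndufc2 the difference was -0.65 ± 0.24 (adjusted p = 0.035), and -0.18 without clone 3 (adjusted p = 0.52), with an adjusted p of 0.053 after quantile normalization.

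Assembly factors of complex I also differed by origin. Ndufaf5, which hydroxylates Ndufs7, had 8.14, 8.21 and 8.07 in TTF lines at passage 4, against 8.76 to 9.23 in the 9 arrays of the other origins. No TTF array reached the others, and the difference was -0.73 ± 0.11 (limma adjusted p = 3.9e-05, at most 0.00076 with any 1 array left out). At passage 16 TTF lines had 8.79, 8.71 and 8.46, a rise of 0.51 ± 0.14 over passage 4 (adjusted p = 0.013, and 0.069 without passage 16 clone 1).

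Ndufaf4, an early assembly factor, had 9.77, 9.84 and 9.88 in granulocyte lines at passage 4, against 8.78 to 9.76 in the other origins. It was highest there, if barely above the top TTF array, by 0.60 ± 0.13 (limma adjusted p = 0.0011). At passage 10 granulocyte lines had 10.25, 10.28 and 10.24, against 11.004, 10.98 and 10.95 in TTF, 10.78, 10.61 and 10.79 in B cell and 10.55, 10.64 and 10.80 in T cell lines. Here granulocyte lines were lowest, by -0.54 ± 0.06 (adjusted p = 5.6e-05), and TTF lines were highest, by 0.43 ± 0.06 (adjusted p = 0.0025), with neither group overlapping the others. The direction in granulocyte lines was thus opposite at passages 4 and 10, which were measured on different platforms. Between passages 4 and 16 it fell in granulocyte lines by 0.59 (SE 0.16, adjusted p = 0.0058, and 0.08 after cyclic loess normalization).

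Of the other complex I assembly factors, Ndufaf3, the partner of Ndufaf4, was lower in granulocyte lines at passage 4 by -0.48 ± 0.15 (limma adjusted p = 0.023, and between 0.055 and 0.12 without any 1 of their 3 clones). Ndufaf7, an assembly factor with methyltransferase activity that was measured only at passage 10, had a granulocyte difference of 0.38 ± 0.07 (adjusted p = 0.001). Ndufaf1, which helps to build the membrane arm, had 7.59, 7.71 and 4.69 in granulocyte lines at passage 16, against 8.16, 8.12 and 8.17 at passage 4. The difference of -1.49 ± 0.44 (adjusted p = 0.011) became -0.50 without clone 3 (adjusted p = 0.16).

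Of the 4 subunits of complex II, the enzyme shared with the citric acid cycle, 3 were higher in granulocyte lines at passage 10, against 21.1% of all genes. Sdhc, a membrane anchor, had 10.86, 10.95 and 10.90 in granulocyte lines, against 10.32 to 10.61 in the 9 other arrays. The iron-sulfur subunit Sdhb had 12.09, 12.14 and 12.17, against 11.77 to 11.92, and Sdhd, the other anchor, had 11.72, 11.48 and 11.65, against 11.19 to 11.54. Sdhb and Sdhc did not overlap between granulocyte lines and the rest, and Sdhd did. The differences were 0.42 ± 0.07 for Sdhc, 0.29 ± 0.05 for Sdhb and 0.24 ± 0.06 for Sdhd (limma adjusted p = 0.00037, 0.00062 and 0.0075), and each call held with any 1 array left out. The flavoprotein Sdha differed by 0.09 ± 0.05 (adjusted p = 0.15).

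At passage 4 limma called none of the 4 subunits in granulocyte lines (23.1% of all genes), and none had an unadjusted p under 0.05. Group means at passages 4, 6 and 16 ran from 10.65 to 11.36 for Sdha, 10.30 to 10.69 for Sdhb, 9.80 to 10.36 for Sdhc and 10.11 to 10.65 for Sdhd. Sdhc fell in T cell lines at passage 16 by 0.56 (limma adjusted p = 0.023, lost in 3 of 33 omissions with values up to 0.11). Sdha was lower in B cell lines at passage 16 by -0.62 ± 0.20 (adjusted p = 0.048), a call lost in 23 of 33 omissions, with 0.39 without passage 16 clone 3. When its probe sets were averaged the difference was -0.32 (adjusted p = 0.19), the other probe set showing -0.013.

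The range of origin means at passage 4 had a median of 0.76 over 3 complex II assembly factors and 0.28 over the 4 subunits, against 0.55 over all genes. Sdhaf1, which inserts iron-sulfur clusters into Sdhb, had 7.12, 7.09 and 7.22 in B cell lines at passage 4, against 7.49 to 8.12 in the other origins. B cell lines were below every other array, by -0.73 ± 0.12 (limma adjusted p = 0.00053, at most 0.01 with any 1 array left out). At passage 16 B cell lines had 7.74, 7.84 and 7.80, above passage 4 by 0.65 ± 0.15 (adjusted p = 0.0082, at most 0.042). Sdhaf4, which aids the joining of Sdha and Sdhb, had 9.73, 9.50 and 10.02 in TTF lines at passage 4, against 8.90 to 9.23 in the others, a difference of 0.64 ± 0.14 (adjusted p = 0.0021, at most 0.032). At passage 16 Sdhaf4 was lower than at passage 4 in TTF lines by -0.56 ± 0.18 (adjusted p = 0.036, lost in 4 of 33 omissions, all of TTF arrays compared, with values up to 0.18). In T cell lines it was higher by 0.50 ± 0.18 (adjusted p = 0.049, lost in 26 of 33 omissions with values up to 0.15). Sdhaf2, which attaches the flavin to Sdha, was lower in granulocyte lines at passage 10, with 9.18, 8.98 and 8.91 against 9.25 to 9.62, by -0.46 ± 0.08 (adjusted p = 0.00091).

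Between origins at passage 4, 1 of 7 complex III subunits was called in each of TTF, B cell and T cell lines and none in granulocyte lines. Of all genes, 19.5%, 10.1%, 18.8% and 23.1% were called in these 4 comparisons. At passage 10 none of the 8 complex III subunits was called in granulocyte lines by limma (38.2% of all genes), and none had an unadjusted p under 0.05. Group means of the core proteins at passages 4, 6 and 16 ran from 10.15 to 10.81 for Uqcrc1, 11.87 to 12.19 for Uqcrc2 and 10.68 to 10.96 for Uqcrfs1. The gene that stood out was Uqcr11. It had 9.18, 9.38 and 9.03 in T cell lines at passage 4, against 9.48 to 9.98 in the other origins, below them all by -0.47 ± 0.12 (limma adjusted p = 0.0054, and 0.064 without T cell clone 3). At passage 16 T cell lines had 9.76, 9.99 and 9.95, a rise of 0.70 ± 0.14 over passage 4 (adjusted p = 0.0011, at most 0.011 with any 1 array left out).

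In complex IV the isoforms Cox4i2, Cox7a1 and Cox6b2 varied more between groups than their widely expressed counterparts. Group means at passages 4, 6 and 16 ran from 11.42 to 11.79 for Cox4i1 but 4.93 to 6.92 for Cox4i2, the lung isoform, and from 12.53 to 12.91 for Cox7a2 but 7.27 to 8.45 for Cox7a1, the heart and muscle isoform. They ran from 11.45 to 12.10 for Cox6b1 and 10.37 to 11.77 for Cox6b2, the testis isoform. The muscle isoform Cox6a2 (5.32 to 6.24) and the isoforms Cox8b (5.16 to 5.77) and Cox8c (5.46 to 6.07) varied by less than 1 log2 unit, as did Cox6a1 (11.88 to 12.27), Ndufa4 (10.91 to 11.20), Cox5a (11.61 to 12.13) and Cox5b (12.22 to 12.65). At passage 10 the ranges were 13.78 to 13.88 for Cox4i1, 14.06 to 14.10 for Cox7a2 and 13.65 to 13.74 for Cox6b1, against 8.86 to 9.82 for Cox7a1 and 9.59 to 10.69 for Cox6b2, while Cox4i2 ran from 5.33 to 5.44. No detection calls were used here, so whether the lowest values, such as those of Cox4i2 and Cox8b, lie above background was not tested.

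Cox6b2 had 10.42, 10.84 and 10.80 in granulocyte lines at passage 10, against 9.64, 9.40 and 9.74 in TTF, 9.57, 9.95 and 9.76 in B cell and 9.37, 10.03 and 9.56 in T cell lines. Cox7a1 had 9.58, 10.001 and 9.88 in granulocyte lines, against 8.91, 8.70 and 9.34 in TTF, 8.79, 9.04 and 9.09 in B cell and 8.69, 9.16 and 8.74 in T cell lines. Both were higher in all 3 granulocyte lines than in any other array. The differences were 1.02 ± 0.14, a 2.02-fold difference, for Cox6b2 and 0.88 ± 0.14 for Cox7a1 (n = 3 against 9, limma adjusted p = 0.00016 and 0.00038, at most 0.0021 and 0.004 with any 1 array left out). The supercomplex factor Cox7a2l was higher there too, with 12.20, 12.19 and 12.22 against 11.78 to 11.93 (0.34 ± 0.05, adjusted p = 0.00024).

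At passage 4 the same isoforms were not high in granulocyte lines. Cox7a1 had 7.24, 7.12 and 7.45 in granulocyte lines, against 8.31, 9.01 and 8.05 in TTF, 7.69, 7.75 and 8.06 in B cell and 7.81, 8.25 and 7.82 in T cell lines. Granulocyte lines were below all 9 others, by -0.81 ± 0.20 (limma adjusted p = 0.0036, at most 0.037 with any 1 array left out). TTF lines were 0.77 ± 0.20 above the others (adjusted p = 0.0075), and 0.49 without TTF clone 2 (adjusted p = 0.17). At passage 16 granulocyte lines had 8.06, 8.07 and 8.32 for Cox7a1, a rise of 0.88 ± 0.24 over passage 4 (adjusted p = 0.008). The direction of granulocyte lines against the other origins at passage 4 was opposite to that at passage 10, which was measured on another platform.

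Cox6b2 had 10.29, 10.36 and 10.74 in TTF lines at passage 16, against 11.64, 11.65 and 12.03 at passage 4. The passages did not overlap, and the difference of -1.31 ± 0.27 (n = 3 against 3, limma adjusted p = 0.0016, at most 0.013 with any 1 array left out) was the largest called passage difference in TTF lines among the 85 genes. In the other origins the Cox6b2 differences were -0.48 in granulocyte, -0.18 in B cell and 0.02 in T cell lines. The interaction had an adjusted p of 0.031, a call lost in 5 of 33 omissions, with values up to 0.086. B cell clones were spread widely, from 10.19 to 11.50 at passage 16 and from 10.75 to 11.83 at passage 4.

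Cox8a had 10.11, 10.11 and 10.48 in T cell lines at passage 16, against 11.22, 11.60 and 10.98 at passage 4. This difference of -1.03 ± 0.16 (limma adjusted p = 5.7e-05, at most 0.0009 with any 1 array left out) came with a fall of Cox7a2l, which had 10.64, 10.73 and 10.75 at passage 16, against 11.38, 11.32 and 11.42 at passage 4 (-0.67 ± 0.12, adjusted p = 0.0004). Neither gene overlapped between passages. In T cell lines at passage 4 both were also above the mean of the other origins, Cox8a by 0.62 ± 0.13 (adjusted p = 0.0011) and Cox7a2l by 0.47 ± 0.10 (adjusted p = 0.0014). For Cox8a, T cell and TTF lines overlapped at passage 4, TTF lines having a mean of 11.02. In TTF lines Cox8a was lower at passage 16 by -0.56 ± 0.16 (adjusted p = 0.02, lost in 3 of 33 omissions with values up to 0.13). Without probe sets ending in _x_at, which can cross-hybridize, the adjusted p there was 0.071. Over the 4 origins Cox8a was lower by -0.47 ± 0.08 (adjusted p = 0.00011). In T cell lines 6 of 17 feeder markers were lower and none higher at passage 16, against 10.4% and 7.49% of all genes. In TTF lines 8 were higher and 1 lower, against 5.76% and 6.43%. Their part in these differences was not tested.

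Over the 4 origins, 6 of 16 complex IV subunits fell and none rose between passages 4 and 16, against 12.4% of all genes lower and 16.6% higher. In granulocyte lines alone 3 rose and 1 fell, against 22.0% and 14.0%. Cox4i2 had 6.86, 6.23 and 7.23 at passage 16 in granulocyte lines of mouse 2, against 5.63, 5.90 and 5.84 at passage 4 (0.99 ± 0.34, limma adjusted p = 0.028, lost in 5 of 33 omissions with values up to 0.16). In granulocyte lines of mouse 1 Cox4i2 had 5.97, 5.90 and 6.16 at passage 16, against 4.72, 4.67 and 5.40 at passage 4, also without overlap, but the difference of 1.08 ± 0.34 did not pass (adjusted p = 0.14). Cox6a1 was lower in granulocyte lines than in the other origins at passage 4 by -0.31 ± 0.08 (adjusted p = 0.0086), and by -0.21 when its probe sets were averaged (adjusted p = 0.084).

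**Figure D5:**
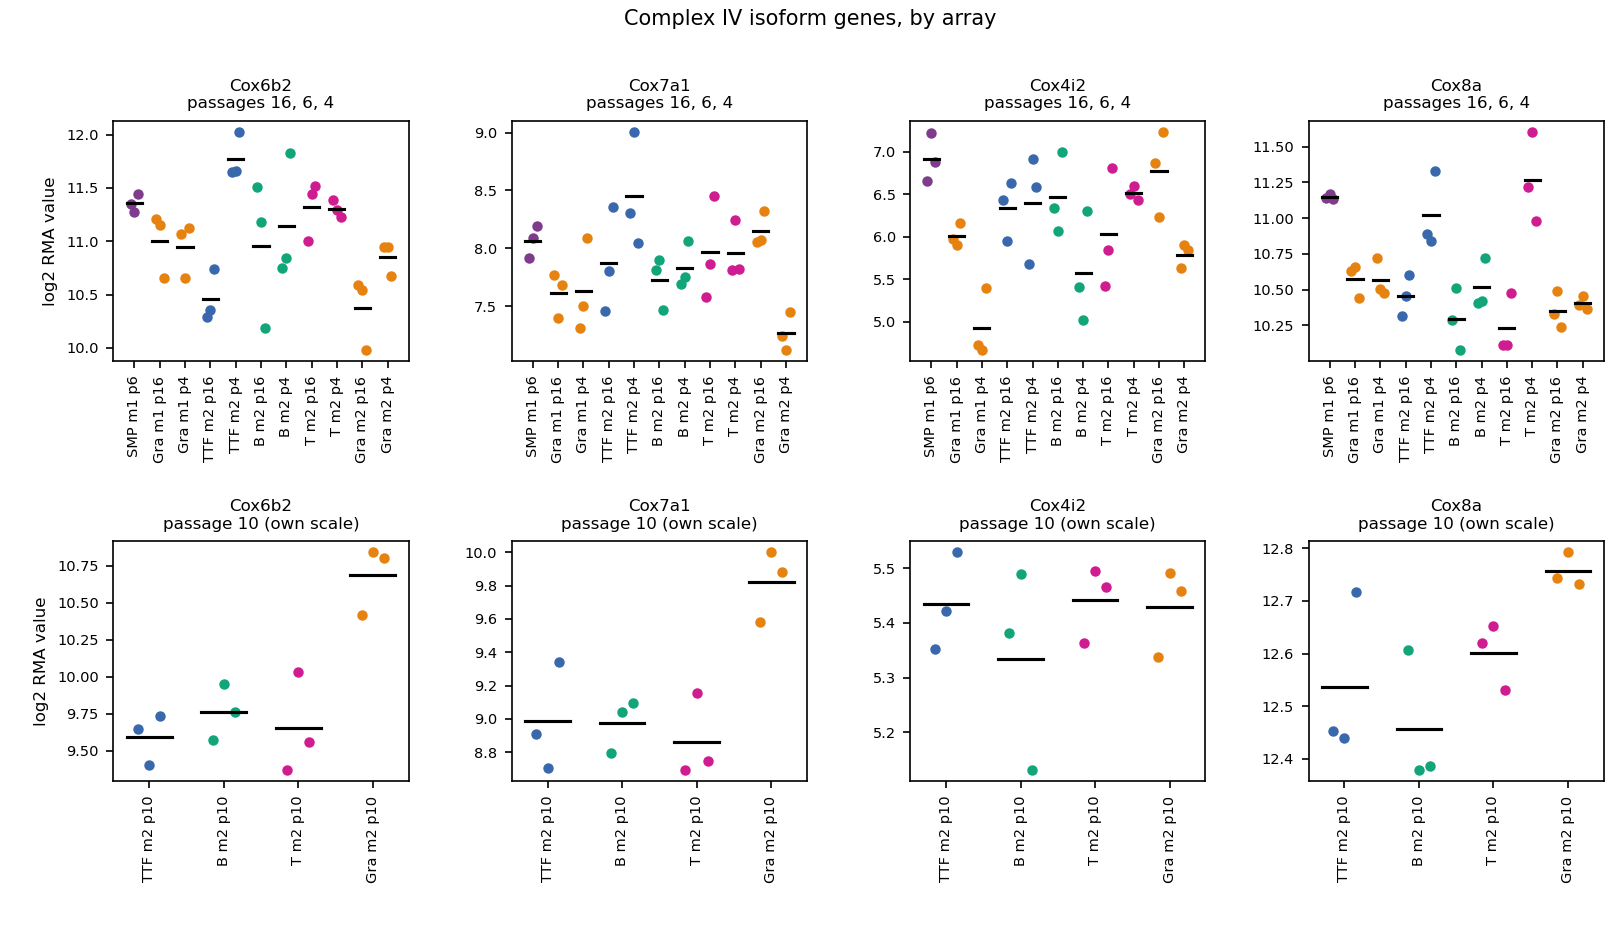
Log2 RMA values of the complex IV genes Cox6b2, Cox7a1, Cox4i2 and Cox8a, 1 point per clone, by group (horizontal axis), with passage 10 on its own scale. Granulocyte lines are highest for Cox6b2 (10.42 to 10.84) and Cox7a1 (9.58 to 10.001) at passage 10, and TTF lines show the separation of passage 16 (10.29 to 10.74) from passage 4 (11.64 to 12.03) for Cox6b2.

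Of 17 complex V subunits, limma called 3 in TTF, 1 in B cell and 3 in T cell lines at passage 4 and none in granulocyte lines, where 2 had an unadjusted p under 0.05. Of all genes, 19.5% were called in TTF, 10.1% in B cell, 18.8% in T cell and 23.1% in granulocyte lines. In T cell lines at passage 4 Atp5e, the epsilon subunit of F1, had 11.74, 12.09 and 11.68, against 11.09 to 11.47 in the others, higher without overlap by 0.61 ± 0.12 (limma adjusted p = 0.00069, at most 0.02 with any 1 array left out). At passage 16 T cell lines had 11.12, 11.15 and 11.31, lower than at passage 4 by -0.64 ± 0.15 (adjusted p = 0.0032). The peripheral stalk subunit Atp5h was higher at passage 16 in T cell lines by 0.32 ± 0.10 (adjusted p = 0.023, lost in 4 of 33 omissions with values up to 0.086, and 0.098 after cyclic loess). Atp5a1, the F1 alpha subunit, was lower in TTF lines at passage 4 by -0.64 ± 0.18 (adjusted p = 0.011), and by -0.41 without TTF clone 2 (adjusted p = 0.21). Group means of the F1 core subunits at passages 4, 6 and 16 ran from 11.58 to 12.36 for Atp5a1 and from 11.92 to 12.38 for Atp5b.

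The genes of the c subunit, of which Atp5g1, Atp5g2 and Atp5g3 encode the same mature protein, did not all differ in one direction in granulocyte lines at passage 10. Atp5g2 was higher, with 13.08, 13.15 and 13.20 against 12.73 to 12.98 (0.29 ± 0.05, limma adjusted p = 0.001, and 0.17 with adjusted p = 0.074 when its probe sets were averaged), and Atp5g3 was lower, with 13.91, 13.94 and 13.91 against 14.03 to 14.13 (-0.16 ± 0.04, adjusted p = 0.014, and 0.059 without granulocyte clone 3). Both groups of 3 lay outside the range of the others. Atp5g1 had 12.41, 12.63 and 12.41 in granulocyte lines, against 12.55 to 12.98, a difference of -0.29 ± 0.08 with overlap (adjusted p = 0.0098, and 0.050 and 0.062 without granulocyte clones 1 and 3). Between passages, Atp5g1 was lower in granulocyte lines at passage 16 than at passage 4 by -0.71 ± 0.20 (adjusted p = 0.0082), and by -0.41 without passage 16 clone 3 (adjusted p = 0.11). The peripheral stalk gene Atp5pb differed there by -0.63 ± 0.23 (adjusted p = 0.036), and by -0.25 without that clone (adjusted p = 0.43), whereas the F1 delta subunit Atp5d was higher by 0.52 ± 0.12 (adjusted p = 0.0015, at most 0.013 with any 1 array left out).

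SMP lines at passage 6, set against granulocyte lines at passage 4 of the same mouse, differed most, among the 85 genes, in Cox4i2. It had 6.65, 7.22 and 6.88 in SMP lines, against 4.72, 4.67 and 5.40 in granulocyte lines, a difference of 1.99 ± 0.34 (n = 3 against 3, limma adjusted p = 0.00013, at most 0.0019 with any 1 array left out). Sdhaf1 had 8.08, 8.32 and 8.52 in SMP lines, against 7.27, 7.004 and 7.08 in granulocyte lines, a difference of 1.19 ± 0.15 (adjusted p = 3.1e-06). The groups did not overlap for either gene. Ndufa6 was higher in SMP lines by 0.90 ± 0.16, Ndufb9 by 0.87 ± 0.16, Cox7a2l by 0.71 ± 0.12 and Cox8a by 0.58 ± 0.16 (adjusted p = 0.00017, 0.00029, 0.00015 and 0.0085), each holding with any 1 array left out.

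Fewer genes were lower in SMP lines. Uqcr11 had 9.19, 8.88 and 9.04 in SMP lines, against 9.96, 9.70 and 9.56 in granulocyte lines (-0.70 ± 0.14, limma adjusted p = 0.00077). Ndufaf3 (-0.59 ± 0.19, adjusted p = 0.022), Atp5g1 (-0.58 ± 0.20, adjusted p = 0.036) and the peripheral stalk subunit Atp5j (-0.44 ± 0.13, adjusted p = 0.015) were lower without overlap, with calls lost in 4, 4 and 2 of 33 omissions at up to 0.12, 0.2 and 0.098. Feeder markers differed in the same comparison, 9 of 17 being higher and none lower in SMP lines, against 11.6% and 10.1% of all genes. Their mean was 8.10 in SMP lines, against 7.29 in granulocyte lines. SMP passage 6 and T cell passage 4 lines, the groups with the highest feeder mean, also had high Ndufa6, Cox8a, Cox7a2l and Atp5e and low Uqcr11. At passage 16 all groups but T cell lines had feeder means nearly as high, 7.93 to 8.01. In those groups Cox8a had means of 10.29 to 10.58, Cox7a2l of 10.79 to 10.95 and Uqcr11 of 9.69 to 9.90. Ndufa6 had means of 10.07 to 10.53 there, and Atp5e of 10.96 to 11.37. At passage 4 Ndufa6 had means of 9.82 in B cell lines and 9.73 and 9.94 in granulocyte lines of mouse 1 and 2. TTF passage 4 lines, with a feeder mean of 7.39, had means of 11.02 for Cox8a and 10.53 for Ndufa6. Their means were 10.87 for Cox7a2l, 11.29 for Atp5e and 9.73 for Uqcr11. At passage 10 Ndufa6, Cox8a, Cox7a2l and Atp5e had their highest means in granulocyte lines, which had the lowest feeder mean. Uqcr11 had its highest mean in TTF lines, which had the highest feeder mean. What part feeder RNA had in any of these was not tested.

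In granulocyte lines of mouse 1 between passages 16 and 4, Sdhaf1 came nearest to a call, with 7.64, 7.65 and 7.78 at passage 16, against 7.27, 7.004 and 7.08 at passage 4. The values did not overlap, and the difference was 0.57 ± 0.15 (limma adjusted p = 0.058).

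Other mitochondrial genes were counted from lists chosen for their function. Of 21 measured partners of the chain outside the symbol rule, such as cytochrome c and copper chaperones, 7 were higher and 2 lower in T cell lines at passage 4, against 12.3% of all genes higher and 6.42% lower. Among them were Atpaf2, an F1 assembly factor, at 0.95 ± 0.13, and Cox19, a complex IV assembly factor, at 0.73 ± 0.11 (limma adjusted p = 1.2e-05 and 4.2e-05). In T cell lines both were lower at passage 16 than at passage 4, by -0.59 ± 0.16 and -0.90 ± 0.14 (adjusted p = 0.011 and 5.9e-05), and in SMP lines both were higher than in granulocyte lines of mouse 1, by 0.94 ± 0.16 and 0.93 ± 0.14 (adjusted p = 0.00013 and 2.6e-05). Of 14 measured regulators of mitochondrial biogenesis 1 was higher and 2 lower in T cell lines at passage 4. The 1 that was higher was Polg2, the accessory subunit of the mitochondrial DNA polymerase, named after its values were seen, at 1.16 ± 0.15 (adjusted p = 5.4e-06).

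At passage 10, 6 of 22 measured partners were higher and 4 lower in granulocyte lines, against 21.1% and 17.2% of all genes. Higd1a, a hypoxia-inducible partner of complex IV, exceeded the other origins there by 0.58 ± 0.08 (limma adjusted p = 0.00023). The complex III assembly factor Bcs1l was higher at passage 16 than at passage 4 over the 4 origins of mouse 2 by 0.78 ± 0.08 (adjusted p = 2e-07). Of the citric acid cycle genes, 3 of 15 were higher and 1 lower in granulocyte lines at passage 10. Over the 4 origins, 2 of 14 were higher and 4 lower at passage 16, against 16.6% and 12.4% of all genes. Mitochondrial ribosomal protein genes, which build the machinery that translates the mitochondrially encoded subunits, were called lower more often than higher in granulocyte lines at passage 10: 5 of 74 were higher and 28 lower, against 21.1% and 17.2% of all genes, and the difference from the respiratory chain genes was not tested. Against granulocyte lines of mouse 1, 1 of 70 was higher and 15 were lower in SMP lines, against 11.6% and 10.1% of all genes. Of 69 cytosolic ribosomal protein genes none was called in T cell lines at passage 4, against 18.8% of all genes.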

How the data were processed

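Gene expression of mouse iPSC lines was measured on one-colour Affymetrix arrays. The deposited values are log2 intensities on 2 tables, which the submitters' processing notes give as made with RMA, with no version. The tables come from different array platforms, were normalized separately, on 33 and 12 arrays, and were not joined. For each gene the probe set with the highest mean among those with 1 symbol was kept, from 22690 probe sets per table. Each table was fitted as a whole, with a mean for every group, using limma (version 3.58.1, under R 4.3.3), and p-values were adjusted over all genes. The members and gene lists were chosen with earlier results of these data known. Genes were named by a rule: per comparison, up to 5 called genes per direction whose values do not overlap between the 2 sides, for F-tests the 5 widest, and in addition the succinate dehydrogenase subunits, isoform pairs and core subunits. Genes called in several comparisons, such as Ndufb9, Cox8a and Cox7a1, and the c-subunit genes, chosen after their values were seen, were also followed into comparisons where their values overlap.

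Clone numbers are shared between passages but not stated to mark the same line: deviations of same-numbered clones correlated at -0.317 to 0.41 (median 0.16, 2000 genes, 15 lines), and the number was best matched by itself in 8, so no pairing was used. On simulated data with 200 changed genes, TTF against the other origins at passage 4 (11807 genes) recovered 25% of changes of 0.5 log2 units and 82% of changes of 1. The passage difference in TTF lines recovered 15% and 67%, and granulocyte lines at passage 10 (12394 genes) 77% and 98%. False calls made up 3.6%, 3.5% and 7.4% of the calls in these 3 simulations. In the data 19.5%, 12.2% and 38.2% of all genes were called in the same comparisons. These shares are larger than that of the 200 changed genes, so recovery in the data can differ. Precision is limited by the number of arrays, 3 per group. Of 71 named results 22 come from genes that have more than 1 probe set, whose signs were alike in 21, whatever the size, with Ndufa12 in B cell lines between passages as the exception. At passage 10, 8 probe sets of the gene class carry several symbols and were left out. Promoter windows are from RefSeq. Alternatives tried were averaging probe sets, leaving out probe sets ending in _x_at, and quantile and cyclic loess normalization. Others were leaving out the genes of lowest signal, a block for clone number or line, and leaving out each array. Probe sets ending in _x_at can cross-hybridize, and those ending in _s_at, which can match several transcripts, were not left out.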

Additional observations from a re-analysis of the deposited data

Results flagged for a closer look

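For 24 respiratory chain genes the difference between passages 16 and 4 was itself unequal among the 4 origins of mouse 2 (limma F-test of the interaction, Benjamini-Hochberg adjusted p under 0.05). Of all genes, 32.8% were called in that test. The value given for each is the spread between the highest and the lowest origin, in log2 units. In complex IV it was 1.47 for Cox4i2, 1.46 for Cox7a1, 1.33 for Cox6b2, 0.98 for Cox8a and 0.83 for the supercomplex factor Cox7a2l. Cox4i2 rose in granulocyte lines (0.99) with 0.89 in B cell, -0.05 in TTF and -0.48 in T cell lines, and its interaction was lost in 16 of 33 omissions of 1 array and after quantile normalization (adjusted p = 0.074). Cox7a1 had 0.88 in granulocyte and -0.58 in TTF lines.

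In complex I the spread was 1.24 for Ndufb9, 1.08 for Ndufa6, 1.01 for Ndufa5, 0.83 for Ndufa1, 0.81 for Ndufa8, 0.81 for Ndufb2, 0.74 for Ndufb7, 0.69 for Ndufa7, 0.63 for Ndufv3 and 0.53 for Ndufb8. In 9 of these 10 genes the TTF difference was negative, the exception being Ndufv3 (0.51), and the B cell difference was positive in 9, the exception being Ndufb2 (-0.11). The call of Ndufb2 was lost in 15 of 33 omissions and that of Ndufa1 in 10. The complex I assembly factors Ndufaf5 and Ndufaf4 had spreads of 0.86 and 0.80, Ndufaf5 being the higher at passage 16 in TTF lines only (0.51), against -0.16 to -0.35 in the other origins.

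The complex II assembly factors Sdhaf4 and Sdhaf1 had spreads of 1.05 and 0.86. In complex III the spread was 0.75 for Uqcrc1 and 0.71 for Uqcr11, the calls being lost in 5 and 3 of 33 omissions. In complex V it was 1.08 for Atp5g1, 0.88 for Atp5e and 0.59 for Atp5d. Of the 24 calls, 14 held with any 1 array left out.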

How the results depend on the processing

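The counts of called genes moved by over 1.5 times under these settings. Quantile and cyclic loess normalization each gave 18 in place of 11 genes for granulocyte lines at passage 4. For TTF lines at passage 10, leaving out the genes of lowest signal gave 13 in place of 5, and a block for clone number gave 3. The same filter gave 1 in place of 0 for the passages of mouse 1 granulocyte lines. A block for the line (same clone number at both passages, a pairing the labels do not state) gave 16 in place of 28 over the 4 origins, 3 in place of 10 in TTF, 5 in place of 10 in B cell, 4 in place of 11 in T cell and 16 in place of 25 in granulocyte lines, and 15 in place of 24 for the interaction. With 1 array left out, the counts ran from 25 to 39 among origins at passage 4, 5 to 30 for TTF, 2 to 15 for B cell, 9 to 19 for T cell and 5 to 14 for granulocyte lines. At passage 10 they ran from 11 to 24 among origins, 1 to 9 for TTF and 16 to 28 for granulocyte lines, and at passage 16 from 0 to 7. Between passages they ran from 18 to 34 over the 4 origins, 2 to 11 in TTF, 3 to 14 in B cell, 4 to 18 in T cell, 6 to 31 in granulocyte, 0 to 1 in mouse 1 granulocyte lines and 19 to 35 for the interaction, and from 8 to 21 for SMP lines. Of the values of single genes under alternatives, 4100 kept direction and side of the threshold, 362 kept direction only, and 1 reversed: Atp5a1 in granulocyte lines at passage 10 was -0.027 with probe sets averaged (adjusted p = 0.74), against 0.19 as fitted (adjusted p = 0.027), a call also lost without granulocyte clone 1 (0.12, adjusted p = 0.16) or clone 3 (0.20, adjusted p = 0.061). The cause of these moves was not tested. Alternatives that leave out an array outside the groups compared cannot change a difference, only its p-value. The 3 clones of 1 mouse per group limit every comparison.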
